A study of Mus musculus with 8 samples.

Results

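Phosphoinositides are the phosphorylated forms of the membrane lipid phosphatidylinositol, and the enzymes that add, remove or cleave their head groups were followed here in gastrocnemius (GAS) muscle with and without knockdown of MYTHO (MYTHO-KD). The gene group was chosen by name, as every row of the array table whose gene symbol began with Pik3, Pip4k, Pip5k, Pi4k, Inpp, Mtmr or a numbered phospholipase C stem. The symbols *Pik3c3*, *Pik3r4*, *Mtmr2* and *Mtmr14* were left out by that rule, and where a symbol had several probe sets the brightest was taken. This gave 58 genes of the 22664 gene symbols on the array, none of them chosen for a measured value. *Pik3c2g* was the 1 gene with a second probe set, and the row of *Inpp5b* also names *Mir698*, so that row cannot separate the transcripts.

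The samples were GAS muscles of male wild type C57/Bl6j mice, aged 14 weeks per the labels, taken 3 weeks after they were injected with an adeno-associated virus (AAV) of serotype 1. In the AAV sh-RNA MYTHO group, 4 muscles received a virus whose U6 promoter drives a short hairpin RNA against the *Mytho* transcript. In the AAV sh-RNA scrmb group, 4 muscles received a virus with a scrambled hairpin under the same promoter, in the opposite leg. All 8 muscles were therefore injected, and no uninjected muscle was analysed here. The U6 promoter is not restricted to muscle fibres, and the RNA came from whole muscle tissue, in which fewer cells of a type and less RNA per cell cannot be told apart. By the numbers in the column names, each of 4 animals, called A to D here, gave 1 array to either group.

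Median log2 signals were 6.39 to 6.47 over the 8 arrays, and array pairs correlated across rows at 0.981 to 0.986 within and 0.972 to 0.988 between groups. The targeted gene, listed as D230025D16Rik (Entrez gene 234678), spanned 10.78 to 11.35 in scrmb and 8.08 to 8.80 in MYTHO muscle. Its mean in MYTHO muscle was 14.2% of the scrmb signal (log2 fold change -2.81, standard error 0.21, limma adjusted p = 0.00044). All 9 skeletal muscle markers were bright, with mean log2 signals of at least 16.89, so the labelled tissue was borne out. Summed signals of 8 slow fibre markers ran from 15.47 to 17.62 in scrmb and from 15.74 to 18.71 in MYTHO muscle on the log2 scale, the scrmb muscle of animal A and the MYTHO muscle of animal D standing apart from their groups.

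Cells build phosphoinositides in steps. Phosphatidylinositol 4-kinases and the PIP kinases make PI(4,5)P2, which phospholipase C splits into the calcium-releasing messenger inositol trisphosphate (IP3) and diacylglycerol. Class I phosphoinositide 3-kinases (PI3K) instead turn PI(4,5)P2 into PIP3, the lipid through which insulin and growth factors recruit AKT in muscle, while inositol polyphosphate phosphatases and myotubularins take phosphates off again.

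The promoters of *Plcd1*, *Inppl1*, *Inpp5a* and *Pi4ka* are shown because these were the members with an unadjusted p under 0.05, no overlap between the groups and a mean signal above the median of all rows. The sequences are RefSeq windows of 300 bases in GRCm38.p6 that lie mostly upstream of an annotated start, and the first of 2 windows listed for each gene was taken. They lie at chr9:119093453-119093752 (minus strand), chr7:101838177-101838476 (minus), chr7:139388859-139389158 (plus) and chr16:17406265-17406564 (minus). Capitals mark GC boxes (GGGCGG), E-boxes (CANNTG), the FoxO core (TGTTTAC) and the TATA box (TATAAA), each searched on both strands.
Plcd1: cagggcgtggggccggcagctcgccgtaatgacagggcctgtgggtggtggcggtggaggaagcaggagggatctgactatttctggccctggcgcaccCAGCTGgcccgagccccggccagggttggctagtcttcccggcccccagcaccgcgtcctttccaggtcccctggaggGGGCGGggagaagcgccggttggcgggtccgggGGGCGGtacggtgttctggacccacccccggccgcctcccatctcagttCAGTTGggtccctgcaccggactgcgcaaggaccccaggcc
Inppl1: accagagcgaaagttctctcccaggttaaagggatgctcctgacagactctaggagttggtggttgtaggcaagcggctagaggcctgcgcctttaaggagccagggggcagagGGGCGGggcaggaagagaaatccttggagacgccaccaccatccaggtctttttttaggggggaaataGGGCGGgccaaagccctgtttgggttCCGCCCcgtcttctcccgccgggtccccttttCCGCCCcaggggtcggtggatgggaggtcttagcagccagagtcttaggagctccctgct
Inpp5a: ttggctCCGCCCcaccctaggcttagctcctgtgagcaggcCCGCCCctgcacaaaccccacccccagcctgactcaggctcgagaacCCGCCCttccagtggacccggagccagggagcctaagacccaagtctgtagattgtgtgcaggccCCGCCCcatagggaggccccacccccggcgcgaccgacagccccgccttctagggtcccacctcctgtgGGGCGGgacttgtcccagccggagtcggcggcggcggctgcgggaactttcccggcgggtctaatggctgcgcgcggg
Pi4ka: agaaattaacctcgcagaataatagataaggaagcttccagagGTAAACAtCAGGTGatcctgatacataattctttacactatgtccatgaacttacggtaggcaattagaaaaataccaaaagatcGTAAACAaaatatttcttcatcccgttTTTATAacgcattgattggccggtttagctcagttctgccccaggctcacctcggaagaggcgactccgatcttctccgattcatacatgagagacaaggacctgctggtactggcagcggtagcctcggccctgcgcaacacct

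The promoters of *Inpp5a*, *Inppl1* and *Plcd1* held 5, 4 and 2 GC boxes, whereas that of *Pi4ka* held 0. The *Pi4ka* window held 2 FoxO cores, 1 TATA box and 1 E-box, and *Plcd1* held 2 E-boxes. Among all 32851 windows of this length, which include several for some genes, 35.7% held a GC box, 72.3% an E-box, 3.65% a FoxO core and 13.6% a TATA box. Windows were matched for 49 of the 58 members, 1 per gene, of which 36 (73.5%) held a GC box, 30 (61.2%) an E-box, 2 (4.08%) a FoxO core and 2 (4.08%) a TATA box. The cyclic AMP element (TGACGTCA) and the MEF2 motif, present in 1.79% and 0.557% of all windows, had no match in the 4 windows shown. Such matches describe letters and do not show binding.

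After MYTHO-KD for 3 weeks, 42 of the 58 transcripts had an estimated log2 fold change under 0.3 in either direction (72.4%, beside 67.2% of all rows). Those with groups apart and an unadjusted p under 0.05 included the IP3 and PIP3 phosphatases *Inpp5a* and *Inppl1*. The others were the phospholipases C *Plcd1* and *Plch2* and the 4-kinase *Pi4ka*. Each was higher in MYTHO muscle, by 1.38-fold to 1.58-fold. At an unadjusted limma p under 0.05, 7 of 58 members (12.1%) were higher in MYTHO muscle, beside 4.81% of all 22206 rows, and 1 (1.72%) was lower, beside 7.58% of all rows. None of the 58 passed an adjusted p under 0.05, which 0.027% of all rows did, and the lowest adjusted p among them was 0.217. At the threshold of the study, 2-fold or more together with an unadjusted p under 0.05, limma counted 0 members, beside 1.51% of all rows. At 1.5-fold or more, *Inppl1* and *Plcd1* were counted higher, beside 2.46% of all rows, and *Pip5kl1* lower, beside 4.99%. The 4 MYTHO arrays lay above the 4 scrmb arrays for 6 members (10.3%, beside 2.59% of all rows) and below them for 0 members (beside 3.87% of all rows). After quantile normalization they lay above for 4 members, and the share of all rows was not counted there.

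**Figure D1:**
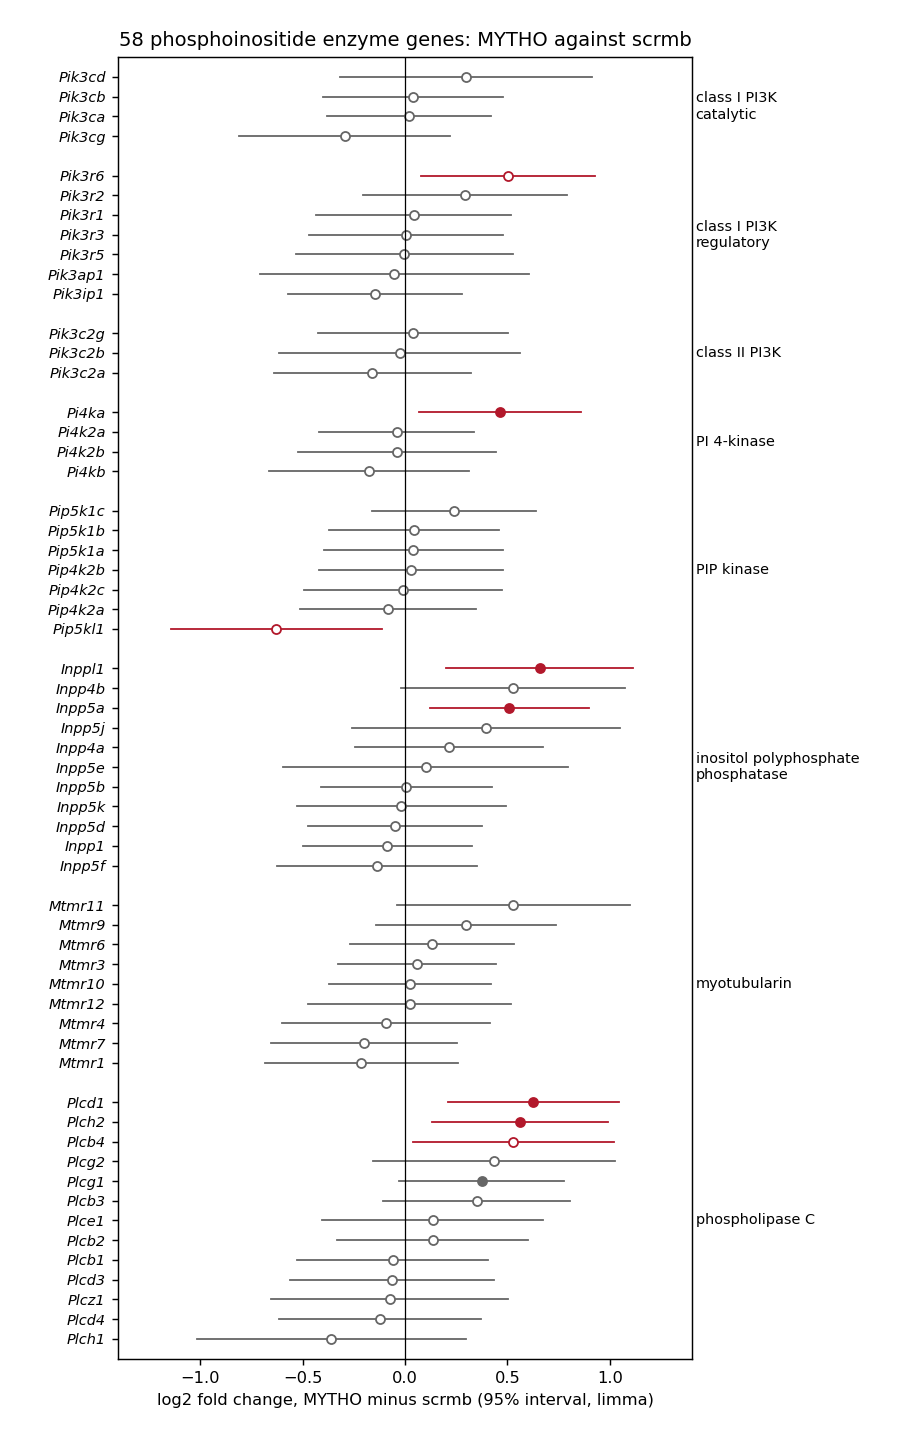
Log2 fold change of each of the 58 genes, MYTHO minus scrmb, with 95% limma intervals, grouped by role; red marks an unadjusted p under 0.05 and filled points mark groups that do not overlap. Estimates run from -0.63 (*Pip5kl1*) to 0.66 (*Inppl1*), and most intervals include 0.

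The median log2 fold change of the members was 0.03, beside -0.005 over all rows, and was 0.0183 without MYTHO B and 0.0833 without MYTHO C. Of the 58, 34 lay above 0 and 24 below, and 42 differed by less than 0.3 on the log2 scale in either direction (72.4%, beside 67.2% of all rows). The median half-width of the 95% interval was 0.47, and for 49 members (84.5%, beside 84.2% of all rows) the whole interval lay within a 2-fold change. By animal, the median difference between the legs was 0.12, 0.23, 0.03 and 0.06 in A to D, with 41, 38, 30 and 32 members higher in the MYTHO leg. In all 4 animals, 9 members (15.5%) were higher, beside 8.94% of all rows, and 1 (1.72%) was lower, beside 10.8% of all rows.

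Among the inositol polyphosphate phosphatases, *Inppl1* and *Inpp5a* were higher in every MYTHO array than in any scrmb array. *Inppl1* (Entrez gene 16332, chromosome 7 from 101822632 to 101838226) codes for SHIP2, which takes the 5-phosphate off PIP3. In animals A to D, the log2 signal was 12.15, 11.81, 11.50 and 12.16 in the scrmb leg and 12.59, 12.83, 12.60 and 12.23 in the MYTHO leg. The groups did not overlap, although the gap was narrow in animal D, whose legs differed by only 0.07, against 0.44, 1.02 and 1.10 in A, B and C. The means were 11.91 ± 0.32 and 12.56 ± 0.25 (SD, n = 4 each), a 1.58-fold difference with a log2 fold change of 0.66, a standard error of 0.21 and a limma p of 0.00852 (adjusted p = 0.236). Its unadjusted p stayed under 0.05 in all 17 alternatives run, between 0.00262 and 0.0295.

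*Inpp5a* (Entrez gene 212111, chromosome 7 from 139389074 to 139579652) codes for the type I 5-phosphatase that inactivates IP3. In the same order of animals, which holds for all values below, scrmb arrays gave log2 signals of 13.29, 13.68, 13.76 and 13.71 and MYTHO arrays 14.24, 13.91, 14.15 and 14.18. The scrmb array of animal A was the lowest of all, and every MYTHO array was above every scrmb array. The means were 13.61 ± 0.22 and 14.12 ± 0.14 (SD, n = 4 each), a log2 fold change of 0.51 with a standard error of 0.18 and a limma p of 0.0146 (adjusted p = 0.275). Without the scrmb array of animal A and the MYTHO array of animal D, the 2 that stood apart in slow fibre markers, the log2 fold change was 0.38 and the p was 0.0875.

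The other 9 phosphatases of this family had log2 fold changes between -0.14 (*Inpp5f*) and 0.53 (*Inpp4b*) and unadjusted p-values above 0.05. *Inpp4b*, described after its values were seen, removes the 4-phosphate of PI(3,4)P2. Its log2 signal was 9.94, 9.60, 9.83 and 9.20 in scrmb and 10.04, 10.11, 10.80 and 9.73 in MYTHO muscle, higher in the MYTHO leg of all 4 animals with overlapping groups. The limma p was 0.0569, 0.0277 with the animal as a block, 0.165 without scrmb D (log2 fold change 0.38) and 0.186 without MYTHO C (0.32). *Inpp5d*, which codes for the haematopoietic SHIP1, was between 6.29 and 6.85 in scrmb and between 6.27 and 6.77 in MYTHO muscle, a log2 fold change of -0.05 with a 95% interval from -0.47 to 0.38.

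**Figure D2:**
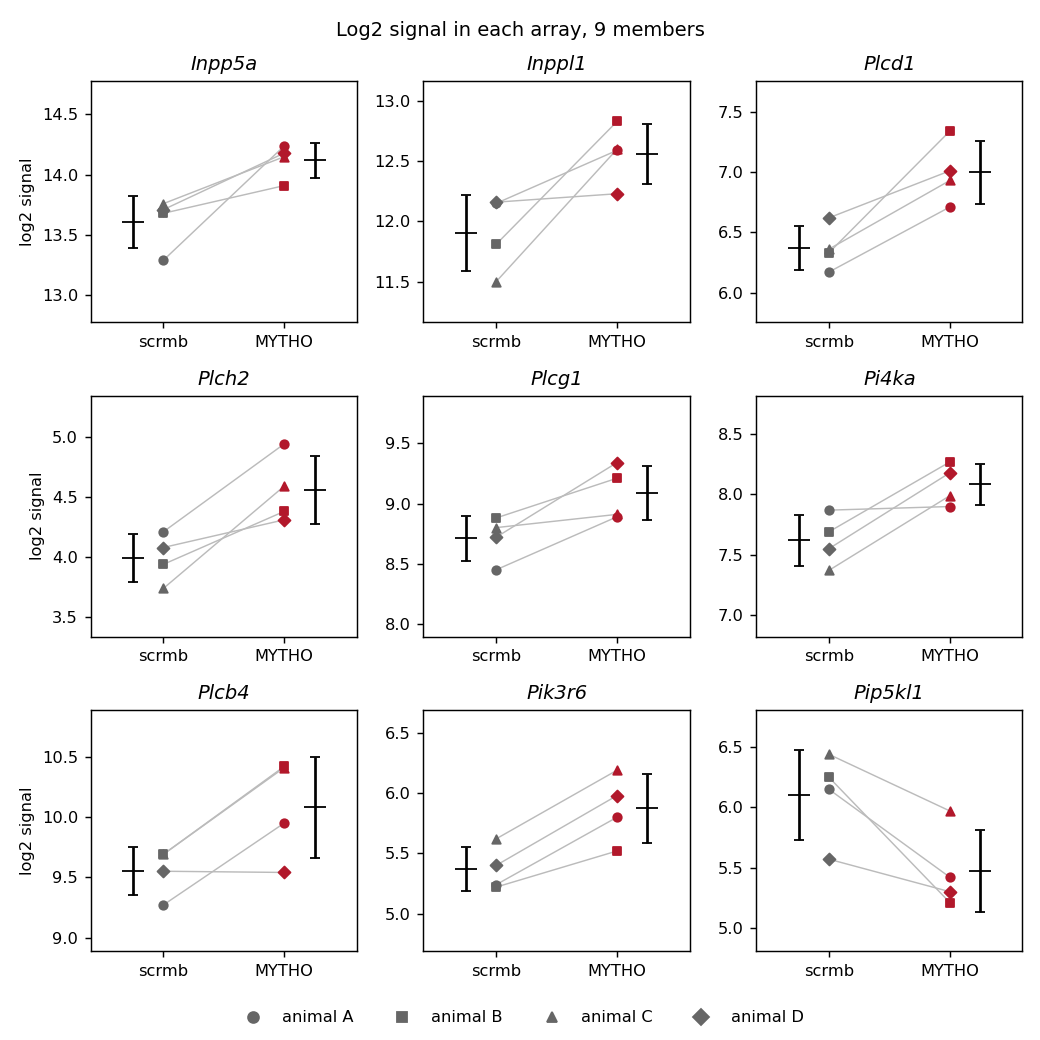
Log2 signal of 9 members in each array, scrmb on the left and MYTHO on the right of each panel; symbols are animals, thin lines join the legs of an animal, and bars give mean ± SD (n = 4). Each panel spans 2 log2 units; *Inppl1*, *Inpp5a*, *Plcd1*, *Plch2*, *Plcg1* and *Pi4ka* have no overlap between the groups, and *Pip5kl1* is lower in the MYTHO leg of all 4 animals.

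Phospholipases C hydrolyse PI(4,5)P2, and 3 of their 13 genes had an unadjusted p under 0.05, all of them higher in MYTHO muscle, where 4.81% of all rows were higher and 7.58% lower. *Plcd1* (Entrez gene 18799, chromosome 9 from 119071527 to 119093502) codes for a phospholipase C of the calcium-responsive delta class. Scrmb arrays gave log2 signals of 6.17, 6.33, 6.36 and 6.62, and MYTHO arrays 6.71, 7.34, 6.93 and 7.01. The groups did not overlap, and the legs differed by 0.54, 1.01, 0.57 and 0.39 in animals A to D. The means were 6.37 ± 0.19 and 7.0 ± 0.26 (SD, n = 4 each), a log2 fold change of 0.63 with a standard error of 0.19 and a limma p of 0.00653 (adjusted p = 0.217), the lowest of the 58. The p stayed under 0.05 in all 17 alternatives run, between 0.00451 and 0.0382.

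*Plch2* (Entrez gene 269615), a phospholipase C of the eta class, was dim, with a mean below the lower quartile of all rows, 5.13. Its log2 signal was 4.21, 3.94, 3.74 and 4.08 in scrmb and 4.94, 4.38, 4.59 and 4.31 in MYTHO muscle, without overlap. This gave a log2 fold change of 0.56, a standard error of 0.20 and a limma p of 0.0144 (adjusted p = 0.274), and without the MYTHO array of animal A the p was 0.0517. *Plcb4* (Entrez gene 18798), an effector of G-protein-coupled receptors, gave 9.27, 9.69, 9.69 and 9.55 in scrmb and 9.95, 10.42, 10.41 and 9.54 in MYTHO muscle. It was higher in the MYTHO leg of animals A, B and C by 0.68 to 0.73, and its legs differed by -0.01 in animal D. The log2 fold change was 0.53 with a limma p of 0.0367 (adjusted p = 0.366), and the p was 0.0983, 0.0606, 0.106 and 0.105 without scrmb A, scrmb D, MYTHO B or MYTHO C.

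*Plcg1* (Entrez gene 18803), the isoform that receptor tyrosine kinases activate, was 8.45, 8.88, 8.80 and 8.72 in scrmb and 8.89, 9.21, 8.91 and 9.34 in MYTHO muscle. The groups did not overlap, by 0.01 on the log2 scale. Its log2 fold change of 0.38 had a limma p of 0.0651 (adjusted p = 0.439), and 0.0714 with the animal as a block. Without scrmb A and MYTHO D the log2 fold change was 0.20 and the limma p 0.344. An exact two-sided permutation test gave 0.0286, the smallest p that 4 against 4 arrays allow. Groups without overlap always give that p, so it repeats the lack of overlap and adds no support. Its relabellings also ignore which legs share an animal. The other 9 phospholipases C lay between -0.36 (*Plch1*) and 0.44 (*Plcg2*). *Plcd4*, with the highest signal of the 13 probe sets, had a log2 fold change of -0.12 with a 95% interval from -0.62 to 0.37, and lay between -0.245 (without scrmb A) and -0.0075 (without MYTHO B) with 1 array left out. Over the 13 genes the median log2 fold change was 0.14, with 8 above 0 and 5 below.

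The phosphatidylinositol 4-kinases make PI4P, from which PI(4,5)P2 is built. Of the 4, only *Pi4ka* had an unadjusted p under 0.05, in the higher direction, beside 4.81% of all rows. *Pi4ka* (Entrez gene 224020, chromosome 16 from 17280351 to 17406314) codes for the kinase that supplies PI4P at the plasma membrane. It read 7.87, 7.69, 7.37 and 7.55 in scrmb and 7.90, 8.27, 7.99 and 8.18 in MYTHO muscle on the log2 signal scale. The groups were separated by 0.03, which was also the difference between the legs of animal A, against 0.58 to 0.63 in the other animals. The difference was 0.47 on the log2 scale, with a standard error of 0.18 and a limma p of 0.0246 (adjusted p = 0.326). Without scrmb C, scrmb D, MYTHO B or MYTHO D the p was 0.0720, 0.0515, 0.0640 or 0.0566. *Pi4kb*, *Pi4k2a* and *Pi4k2b*, which act at the Golgi and on endosomes, had log2 fold changes of -0.18, -0.04 and -0.04.

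Of the 7 PIP kinase genes, *Pip5kl1* (Entrez gene 227733), a relative of the kinases that make PI(4,5)P2 from PI4P, was the 1 member of all 58 that was lower at an unadjusted p under 0.05. The log2 signals were 6.15, 6.25, 6.44 and 5.57 in scrmb and 5.42, 5.21, 5.97 and 5.30 in MYTHO muscle. The MYTHO leg was lower in all 4 animals, but the scrmb array of animal D lay among the MYTHO values. The means were 6.10 ± 0.37 and 5.48 ± 0.34 (SD, n = 4 each), a log2 fold change of -0.63 with a standard error of 0.24 and a limma p of 0.0211 (adjusted p = 0.310). Without scrmb B, scrmb C, MYTHO B or MYTHO D the p was 0.0522, 0.0646, 0.0597 or 0.0541. The other 6 PIP kinases were within -0.08 and 0.24, and *Pip4k2b*, with the highest signal of the 7 probe sets, had a log2 fold change of 0.03 with a 95% interval from -0.42 to 0.48.

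**Figure D3:**
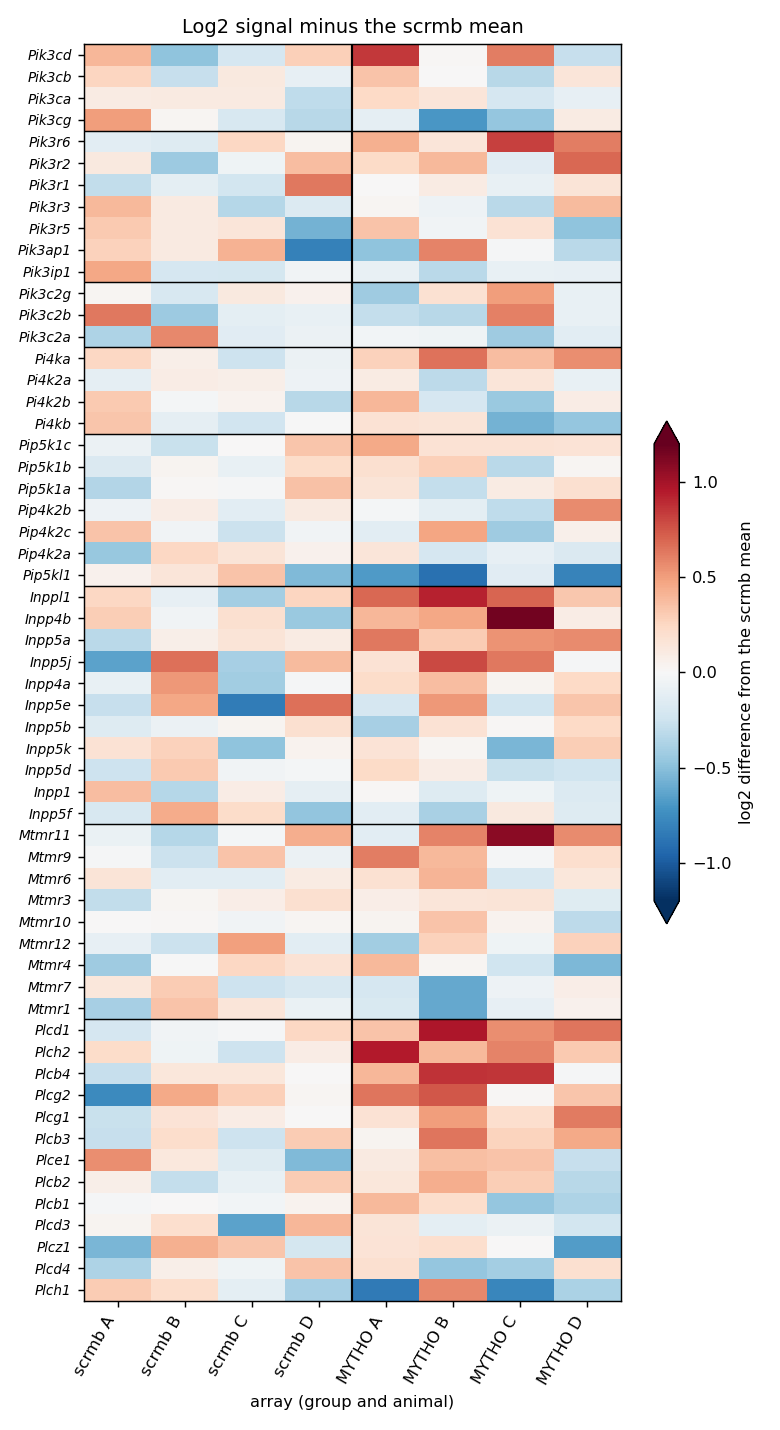
Log2 signal of the 58 genes in each of the 8 arrays after subtraction of the gene's scrmb mean, grouped by role; columns are arrays (group and animal) and colour gives the log2 difference. Columns of 1 group differ among themselves over much of the heat map, with a median within-group SD of 0.30, and no role is of 1 colour over all 4 MYTHO columns.

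The PI3K genes couple insulin and growth factor receptors to AKT. Of the 14 genes for class I and class II subunits and adaptors, 1, *Pik3r6*, had an unadjusted p under 0.05. It was higher, where 4.81% of all rows were higher and 7.58% lower. *Pik3ca*, the catalytic subunit p110 alpha, was 11.82, 11.83, 11.83 and 11.42 in scrmb and 11.96, 11.87, 11.52 and 11.63 in MYTHO muscle. Its log2 fold change was 0.02 with a 95% interval from -0.38 to 0.42. The regulatory subunit gene *Pik3r1* ran from 11.46 to 12.39 in scrmb and from 11.67 to 11.91 in MYTHO muscle, a log2 fold change of 0.04 with an interval from -0.44 to 0.52. For both genes the interval ends short of a 1.5-fold difference in either direction. *Pik3ip1*, which codes for an inhibitor of PI3K and was described after its values were seen, had a log2 fold change of -0.15 with an interval from -0.57 to 0.28.

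The 4 class I catalytic genes ran from -0.30 (*Pik3cg*) to 0.30 (*Pik3cd*) in log2 fold change, none with a p under 0.05. Of the 7 genes for class I regulatory subunits and adaptors, *Pik3r6* (Entrez gene 104709), a regulatory subunit of the p110 gamma kinase, had a p under 0.05. Its log2 signal was 5.24, 5.22, 5.62 and 5.40 in scrmb and 5.80, 5.52, 6.19 and 5.98 in MYTHO muscle, higher in the MYTHO leg of all 4 animals with overlapping groups. The difference was 0.50 on the log2 scale, with a standard error of 0.19 and a limma p of 0.0242 (adjusted p = 0.325). Its catalytic partner *Pik3cg* was dim and had a log2 fold change of -0.30, and the p for *Pik3r6* was 0.0565, 0.0627, 0.0735 or 0.0564 without scrmb A, scrmb B, MYTHO C or MYTHO D. The 3 class II genes ran from -0.16 (*Pik3c2a*, interval -0.64 to 0.32) to 0.04 (*Pik3c2g*), and the second *Pik3c2g* probe set gave -0.20.

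Myotubularins remove the 3-phosphate of PI3P and PI(3,5)P2, lipids of endosomes and autophagosomes, and some family members are catalytically inactive. None of the 9 *Mtmr* genes had an unadjusted limma p under 0.05, and their median log2 fold change was 0.03. *Mtmr6*, with the highest signal of the 9 probe sets, was 11.03 to 11.31 in scrmb and 10.96 to 11.56 in MYTHO muscle, a log2 fold change of 0.13 with an interval from -0.27 to 0.53. The range over the family was -0.21 (*Mtmr1*) to 0.53 (*Mtmr11*). *Mtmr11* was dim, at 3.97, 3.71, 4.03 and 4.49 in scrmb and 3.92, 4.65, 5.13 and 4.62 in MYTHO muscle, with overlapping groups and a limma p of 0.0650. Its p was under 0.05 in 4 of 15 alternatives, lowest at 0.00903 without MYTHO A, and without MYTHO C its log2 fold change was 0.35 and the p 0.200.

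Other genes of the pathway, taken from 5 lists, had no adjusted p under 0.05 in limma, and 4 of the 53 measured (7.55%) were higher at an unadjusted p under 0.05, beside 4.81% of all rows, and 0 were lower, beside 7.58%. With the animal as a block there were 5 higher, *Synj1*, *Itpkb*, *Akt1*, *Ippk* and *Ip6k3*, beside 4.94% of all rows in that fit, and 0 lower, beside 7.66%. Of 14 measured genes for further phosphoinositide enzymes, 2 were higher at an unadjusted limma p under 0.05, namely *Synj1*, a 5-phosphatase of membrane traffic higher by 0.60 on the log2 scale at a limma p of 0.0450 (adjusted p = 0.390), and *Plcxd2* with 0.41 and 0.0335 (adjusted p = 0.358), whose p was 0.0588 with the block. *Mtm1*, the gene mutated in X-linked myotubular myopathy, had a log2 fold change of 0.18 with an interval from -0.31 to 0.67. None of 17 genes for phosphatidylinositol supply and none of the 3 IP3 receptor genes had an unadjusted p under 0.05. *Pitpna*, a phosphatidylinositol transfer protein of the supply list, was 13.38 to 13.53 in scrmb and 12.85 to 13.27 in MYTHO muscle, without overlap and lower in all 4 animals (log2 fold change -0.33), at a limma p of 0.0762.

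Of 15 genes of inositol phosphate metabolism, *Itpkb*, which phosphorylates IP3, was higher by 0.61 on the log2 scale with a limma p of 0.0362 (adjusted p = 0.364). In the same list *Itpkc*, another IP3 kinase, lay higher in every MYTHO array than in any scrmb array (log2 fold change 0.35), at a limma p of 0.0695. Of the 4 genes for protein kinases that PIP3 recruits, *Akt1* was 9.34, 9.29, 8.75 and 10.15 in scrmb and 9.93, 10.31, 9.70 and 10.19 in MYTHO muscle. It was higher in the MYTHO leg of all 4 animals, by 0.59, 1.02, 0.95 and 0.04, with overlapping groups. Its log2 fold change was 0.65 with a limma p of 0.0351 (adjusted p = 0.362), whereas *Akt2* had 0.06 with an interval from -0.32 to 0.44.

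Marker genes of fibre types and other cells differed between the legs as well. Of the 9 skeletal muscle markers, *Mb* and *Myh1* were higher at an unadjusted limma p under 0.05 (log2 fold changes 0.55 and 0.70). Another 3 were saturated on all arrays, and *Tnnt3* and *Pvalb* repeated 1 value, 19.87 and 19.78, on most arrays. The summed level was 22.45 to 22.543 in scrmb and 22.546 to 22.60 in MYTHO muscle, and it cannot register differences in saturated rows. All 8 slow fibre markers had log2 fold changes above 0, 7 of them at an unadjusted limma p under 0.05 and with a median of 1.59. Their summed level differed between the legs by 1.02, 2.27, 2.75 and 0.27 in animals A to D. The *Inppl1* differences of 0.44, 1.02, 1.10 and 0.07 took the same order over the 4 animals, with C highest and D lowest, as did those of 3 members in all (5.17%), beside 4.08% of all rows. *Inpp5a* differed most in animal A and *Pi4ka* and *Plcg1* in animal D. All 5 endothelial markers lay above 0, 1 with a p under 0.05, and their summed level was 13.41 to 13.76 in scrmb and 13.91 to 14.03 in MYTHO muscle, without overlap.

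Of 5 fibroblast markers, 3 lay below 0 and 2 above (*Col3a1* at 0.42 and *Lum* at 0.26). Their summed level, 17.65 to 18.08 in scrmb and 17.04 to 17.64 in MYTHO muscle, came mostly from the bright *Dcn*, whose log2 fold change was -0.60, with a limma p of 0.00850 (adjusted p = 0.236). Haematopoietic markers, 12 in number, summed to 10.70 to 11.13 and 10.68 to 11.17, mostly from *Lyz2*. In log2 fold change, 9 of them lay above 0 and 3 below. The lowest, *Ptprc*, was lower in all 4 animals (log2 fold change -0.59), at a limma p of 0.0290 (adjusted p = 0.343). The highest, *Cd68*, was at 0.535, with a limma p of 0.0882, and 0.0332 with the animal as a block. The summed levels of smooth muscle, Schwann cell and adipocyte markers also overlapped between the groups. The part of fibre type and of these cells in the differences of the members was not tested. Without the scrmb array of animal A and the MYTHO array of animal D, 6 members (beside 4.68% of all rows in that fit) were higher at an unadjusted p under 0.05, of which 5 were among the 7 (*Inppl1*, *Pi4ka*, *Plcb4*, *Plcd1* and *Plch2*) and the sixth was *Inpp4b*. The difference of the group means in summed slow fibre level was 1.58 with all arrays and wider, 2.73, without these 2, so that fit does not remove the fibre type difference.

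**Figure D4:**
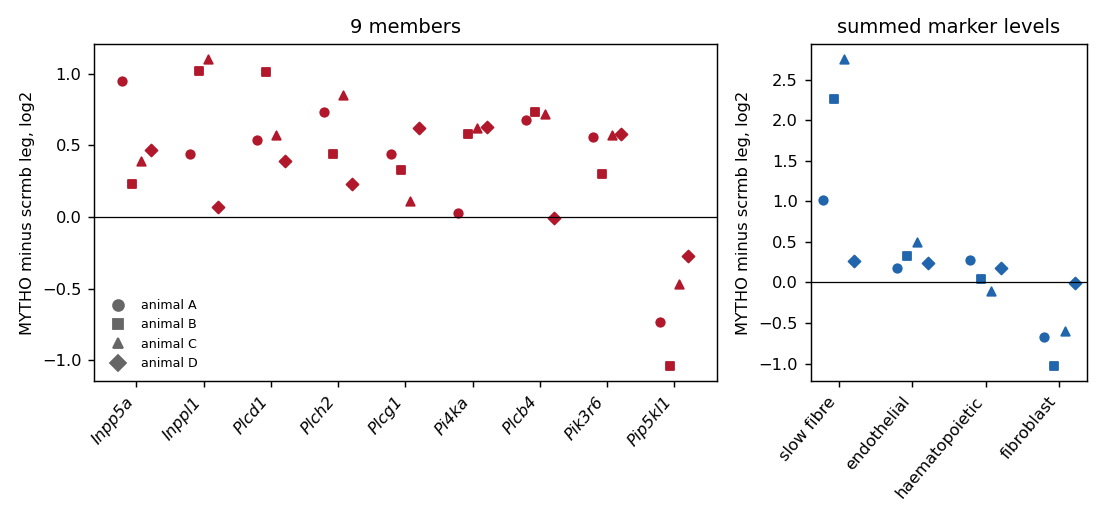
MYTHO leg minus scrmb leg on the log2 scale in each of the 4 animals, for 9 members (left) and for summed marker levels of 4 cell or fibre types (right); the vertical scales differ. Slow fibre differences span 0.27 to 2.75, while those of the 9 members stay within 1.10 of 0.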

How the data were processed

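Total RNA of GAS muscle was hybridised to Clariom S Mouse arrays, 4 per group. The authors deposited gene-level log2 signals from the Transcriptome Analysis Console 4.0.1, which per the file headers used SST-RMA (background correction, quantile normalization and median polish) and mm10 annotation. Their columns of group averages, fold changes and p-values were not used. In the table, 18 of 22206 rows were saturated at a log2 signal of 19.93 on all arrays. No member came near that ceiling, at 3.58 to 14.24. Depth does not apply to arrays, and the number of arrays limits the precision.

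Groups were compared on the log2 scale with limma 3.58.1 in R 4.3.3 (lmFit and eBayes, MYTHO minus scrmb, two-sided, no block), after tests on simulated data, with Benjamini-Hochberg adjustment over all rows. Unadjusted p-values of single members are not corrected for the 58 members. Exact permutation tests used the 70 relabellings of the arrays. Legs of 1 animal carry the same animal number in the column names. Deviations from the group means correlated between legs at 0.003, -0.001, 0.135 and 0.087, and a fit with the animal as a block was an alternative.

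Named were members with an unadjusted p under 0.05 or without overlap, the member of highest signal in each role, and the targeted gene. Other members and pathway genes that are named, among them *Inpp4b*, *Inpp5d*, *Mtmr11*, *Pik3ip1*, the other PI 4-kinases, *Pitpna*, *Itpkc*, *Mtm1* and *Akt2*, were chosen after their values were seen, or are range ends. The values of 1 listed pathway gene are not reported here. Members, lists and tests were chosen with earlier results of these data known. Roles, coordinates and promoters follow RefSeq GRCm38.p6, in which all 58 members matched by Entrez number. The alternatives were quantile normalization, median centring, 2 filters on dim rows (the upper 75% or 50% kept), eBayes with trend and robust, the block, no saturated rows, 1 row per symbol, other thresholds, and leaving out each array. Leaving out the scrmb array of animal A together with the MYTHO array of animal D was chosen after seeing the data.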

Additional observations from a re-analysis of the deposited data

Results flagged for a closer look

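In 5 of the 54 groups of 4 arrays examined, 1 array was far from the other 3, where chance gives about 1 in 20. The number given is the gap to the nearest array as a share of the group's range, counted where it passed the 95% critical value of Dixon's test. *Inpp5a* was lowest in scrmb A (0.830), at a log2 signal of 13.29 beside 13.68 to 13.76. *Pik3ca* was lowest in scrmb D (0.976), at 11.42 beside 11.82 to 11.83. *Pik3ip1* was lowest in MYTHO B (0.958), at 9.85 beside 10.08 to 10.09. The targeted gene D230025D16Rik was highest in MYTHO C (0.833), at 8.80 beside 8.08 to 8.20. The summed endothelial markers were lowest in scrmb C (0.832), at 13.41 beside 13.70 to 13.76.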

How the results depend on the processing

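The count of members higher at an unadjusted p under 0.05 ran from 5 to 9 over the alternatives, and 5 to 7 when 1 array was left out, while the share of all rows ran from 3.45% (without MYTHO B) to 6.91% (upper 50% of rows). *Inppl1* and *Plcd1* were counted under each of them. With the replicate block on animal the counts were 8 higher, the 7 and *Inpp4b*, and 1 lower, beside 4.94% and 7.66% of all rows. Without MYTHO B the 1 lower member was *Plch1* in place of *Pip5kl1*. The count of lower members was 0 in the upper 50% of rows, beside 9.11% of the rows in that fit. It was 0 without scrmb A and MYTHO D, beside 6.54%, and 0 to 1 with 1 array left out, beside 5.82% to 8.74%. Members whose MYTHO arrays all lay below the scrmb arrays were 0 to 1 with 1 array left out and 1 without those 2 arrays. For these settings too, no share of all rows was counted. No member passed an adjusted p of 0.05 in any fit run, or of 0.1 in the fit on all arrays without a block. With a 1.5-fold minimum and an unadjusted p under 0.05, 3 passed, 2 higher and 1 lower, beside 2.46% and 4.99% of all rows. Members whose MYTHO arrays all lay above the scrmb arrays were 4 after quantile normalization. They were 6 to 9 with 1 array left out (9 without MYTHO D) and 9 without scrmb A and MYTHO D. In the brighter rows they were 5 of 52 members (upper 75%) and 5 of 38 (upper 50%). The share of all rows was not counted in these settings. A lack of overlap is more frequent with fewer arrays, so a count above 6 cannot be read as a gain. The median log2 fold change of the members was 0.0183 without MYTHO B, 0.0833 without MYTHO C and 0.0675 with median centring. The fall of D230025D16Rik ran from -2.98 to -2.66 and kept an adjusted p under 0.05 in 17 of 17.

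Of 300 values of single members under an alternative, 258 kept direction and side of the threshold, 20 lost an unadjusted p under 0.05, 11 gained one and 11 changed sign. The sign changes were in members whose log2 fold change lay within 0.16 of 0. With 1 array left out, *Pik3r1* ran from -0.0567 to 0.25, *Pik3ca* from -0.0817 to 0.095, *Pip4k2b* from -0.15 to 0.14, *Pik3c2a* from -0.283 to 0.0333, *Plcd4* from -0.245 (without scrmb A) to -0.0075 (without MYTHO B), *Mtmr6* from 0.0417 (without MYTHO B) to 0.242 (without MYTHO C) and *Pik3ip1* from -0.219 to 0.0075. Without scrmb A and MYTHO D, *Pik3r1* was -0.0933 and *Pip4k2b* -0.17. The cause was not tested. Of the members, 6 had a mean log2 signal below 5.13, the lower quartile of all rows.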
